A study of Mus musculus with 36 samples.

Results

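Megakaryocyte-erythroid precursors (MEP) were compared with granulocyte-monocyte precursors (GMP) sorted from wild-type (WT) mice. The 6 libraries used were those titled WT1, WT2 and WT3 for each of these cell types, out of 36 libraries in the series, and the MEP and GMP libraries of a mouse were paired by its number. The mice were male C57BL/6 littermates of mice lacking Zrsr2 (KO), a gene for a splicing factor of the minor spliceosome. Common myeloid precursors (CMP) of the same 3 WT mice, and the CMP, GMP and MEP of 3 KO littermates, were drawn on for the estimate of spread and as further values. The labels give neither the age of the mice nor the surface markers used to sort the cells, and each library is the RNA of a sorted population, so that fewer cells of a type and less RNA per cell cannot be told apart.

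MEP give rise to red cells and, through megakaryocytes, to platelets, and GMP give rise to neutrophils, monocytes and related cells. The erythroid side is driven by Gata1 with its partners Zfpm1, Tal1, Ldb1 and Klf1, and by the erythropoietin receptor, which together switch on haem synthesis, iron uptake and the red cell membrane. The granulocyte-monocyte side is driven by Spi1 (PU.1), the C/EBP factors, Gfi1 and Irf8, and by the receptors for the colony-stimulating factors, and it fills granules with proteases and the enzyme myeloperoxidase.

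Polyadenylated RNA was sequenced, and for each annotated intron the deposited counts give the reads spliced across it and the reads that run from an exon into it at either end. Spliced counts per library came to between 49689189 and 56821101 in the 3 WT GMP and between 65574482 and 65844717 in the 3 WT MEP. For every 100 spliced counts there were 4.92 to 5.35 exon-intron counts in GMP and 4.33 to 5.34 in MEP. The level of a gene is given in CPM, its spliced counts summed over its introns and scaled to a common total of spliced counts per library, and these sums grow with the number of introns, so levels of different genes are not comparable. A log2 change is always MEP minus GMP, so a positive value is higher in MEP. Its adjusted p comes from edgeR's quasi-likelihood test with Benjamini-Hochberg adjustment over all genes tested. Its standard error (SE) is the size of the change divided by the square root of that test's F statistic. A gene was called at an adjusted p under 0.05. Some neighbouring genes held equal spliced counts at their least-covered introns. Reads spliced across a long unlisted junction around both would give this, which was not tested. In 256 of the 17563 genes tested (1.46%), such counts came to over 50% of the gene's counts in one cell type. These counts are called shared, and Ly6a, Mmp14, Slc7a7 and Cd4 are among the genes. Such genes stay in the counts of calls, and no direction is read from them singly.

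The 2 genes that mark these cells were on the side of their labels in every library. Klf1, an erythroid zinc finger activator on chromosome 8 (84901928 to 84905291, mm10, plus strand), stood at 1.47, 1.19 and 1.07 CPM in GMP of mice 1, 2 and 3 and at 87, 86.6 and 103 CPM in MEP. The groups did not overlap, and Klf1 was higher in MEP by 6.20 on the log2 scale (SE 0.25, adjusted p = 1.85e-09). Elane, which encodes neutrophil elastase, lies on chromosome 10 (79886247 to 79888215, plus strand) and stood at 3234, 3523 and 2414 CPM in GMP against 6.22, 6.01 and 7.38 CPM in MEP. Its log2 change was -8.83 (SE 0.45, adjusted p = 1.14e-08). In CMP the means lay in between for both, 14.2 CPM for Klf1 and 44.1 CPM for Elane.

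Of the 17563 genes tested, 7955 (45.3%) were called: 3684 (21%) were higher in MEP and 4271 (24.3%) were higher in GMP. The counts of list members given below are to be read against these shares. With a 2-fold change also required, 3883 (22.1%) were left, 1164 (6.63%) higher in MEP and 2719 (15.5%) higher in GMP. Changes of 32-fold or more were counted in 202 genes higher in MEP and in 605 higher in GMP. The median log2 change over all genes tested was -0.04. Without regard to the test, all 3 MEP libraries stood above all 3 GMP libraries in 4334 genes (24.7%), and the reverse held in 5020 (28.6%). Of the 3883 genes changed by 2-fold or more, 2553 had a CMP mean between the GMP and MEP means. The same count was not made over all genes tested, so nothing about CMP is read from it.

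The same contrast in the 3 KO littermates, which shares no library with the WT contrast, called 7860 genes (44.8%), 3637 (20.7%) higher in MEP and 4223 (24%) higher in GMP. The calls shared by both genotypes were 3288 higher in MEP, which is 89.3% of the WT calls and 90.4% of the KO calls, and 3819 higher in GMP, which is 89.4% and 90.4%. A single gene was called in opposite directions, and 3845 of the 3883 WT genes past 2-fold had the same sign in KO. Zrsr2 itself stood at 25.4 ± 1.91 CPM in WT GMP and 26.3 ± 1.52 CPM in WT MEP, and at 0.0199 ± 0.0345 and 0.0531 ± 0.0339 CPM in KO GMP and KO MEP.

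**Figure D1:**
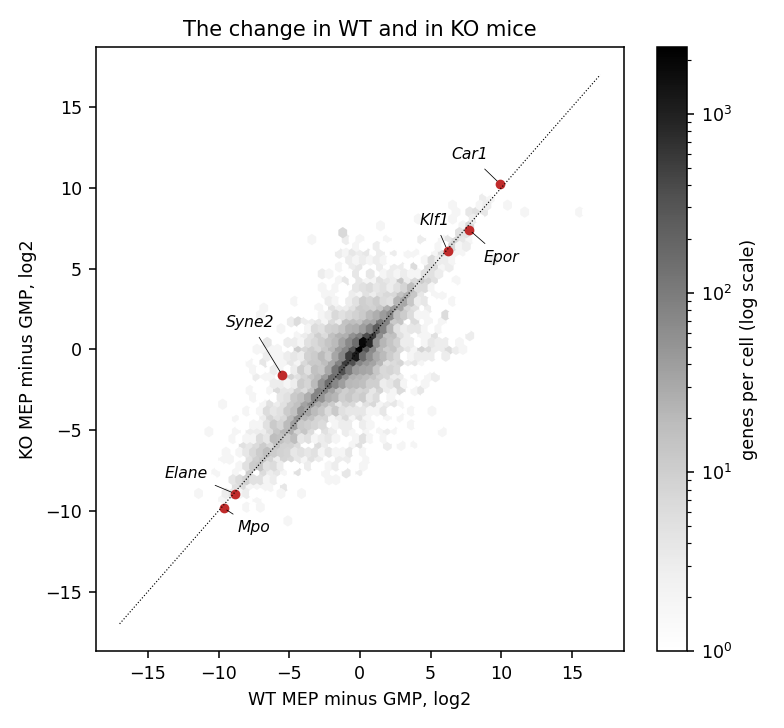
Log2 change between MEP and GMP (MEP minus GMP) of all genes tested, in WT mice on the horizontal axis and in KO mice on the vertical axis, with the number of genes per hexagon as shade and 6 genes marked. Most genes lie along the diagonal, with Mpo and Elane at the lower left and Car1 at the upper right, while Syne2 lies off it with -5.48 in WT and -1.62 in KO.

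Among the 15 named genes with the largest rise in MEP were a cluster of carboxylesterases, red cell proteins and the transporters Slc25a21 and Slc38a5. Car1, the red cell carbonic anhydrase I, went from 3.77, 2.61 and 8.04 CPM in GMP to 3815, 4609 and 3723 CPM in MEP (log2 9.90, SE 0.50, adjusted p = 1.14e-08), with 707 CPM on average in CMP. Ermap, the Scianna blood group protein, went from 1.71, 0.398 and 1.6 CPM to 678, 585 and 573 CPM (9.06, SE 0.43). Add2, an adducin of the red cell skeleton, rose by 9.11, and Pklr, the pyruvate kinase of liver and red cells, by 8.99. The mitochondrial carrier Slc25a21 stood at 0.157, 0.138 and 0.218 CPM in GMP and at 167, 178 and 157 CPM in MEP (9.97, SE 0.65). The glutamine transporter Slc38a5 was at 0.745, 0.415 and 0.693 against 258, 261 and 264 CPM (8.80). Sphk1, which makes sphingosine 1-phosphate, had 5 counts in all 3 GMP libraries together and 112, 137 and 114 CPM in the MEP of mice 1, 2 and 3.

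Of the 15, 4 were carboxylesterase 2 genes that lie next to each other on chromosome 8. Ces2g, with 2.73, 0.761 and 1.6 CPM in GMP against 850, 828 and 712 CPM in MEP, rose by 8.98. Ces2e had no count in any GMP library and 117, 135 and 31.5 CPM in MEP, at least 5022-fold higher against a floor of 3 counts over the group. Ces2f likewise had none in GMP and 20.2, 39.9 and 17.6 CPM in MEP, at least 1375-fold higher, and Ces2c had 5 counts in GMP and 93, 98 and 46 CPM in MEP. In all 4 the MEP library of mouse 3 was the lowest. These genes are close copies, so the split of reads between them is uncertain. With 3 counts each in GMP, the count ratio was 3482 (95% counting interval 1191 to 16885) for the tetraspanin Tspan8 and 2685 (918 to 13021) for the acyl-CoA ligase Acsl6. The others were Tmem56 (9.16) and Sh2d4a (8.99).

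The 15 with the largest fall from GMP to MEP included the granule proteins Mpo, Ctsg and Mcpt8 and the Fc receptors Fcgr3 and Fcgr4. Mpo, myeloperoxidase, stood at 19483, 21220 and 18613 CPM in GMP and at 34.7, 20.5 and 20.2 CPM in MEP (-9.65, SE 0.33, adjusted p = 6.2e-10). Ctsg, cathepsin G, was at 2602, 2590 and 2358 CPM against 3.12, 2.73 and 2.58 CPM (-9.81, SE 0.28, adjusted p = 2.24e-10). Ms4a3, a membrane protein of granulocyte-monocyte precursors, was at 1092, 951 and 929 CPM against 2.26, 1.23 and 1.12 CPM (-9.38, SE 0.26). The groups were far apart in all 3 genes. The adhesion molecule Sele (E-selectin), known chiefly from endothelium, had 35.9, 42.2 and 65 CPM in GMP and no count in MEP, at least 3170-fold lower in MEP.

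Hdc, which makes histamine, was at 230, 248 and 246 CPM in GMP and at 1.03, 0.134 and 0.344 CPM in MEP (-9.00, SE 0.38), and Hsd11b1, which reactivates glucocorticoids, fell by 9.05 on the log2 scale. Mcpt8, a basophil protease, was at 55.3, 30.5 and 40.6 CPM in GMP and at 0.105, 0.0598 and 0 CPM in MEP. The calcium-binding Anxa3 was at 464, 480 and 479 against 0.825, 0.553 and 0.882 CPM (-9.29). The transcription factor Tfec fell by 9.51, the choline dehydrogenase Chdh by 8.89 and Otogl by 9.51. Fcgr4 (-10.26), Fcgr3 (-8.99), Ly6c1 (-9.75) and Serpinb1c (-10.74) belong to families with close copies, and Serpinb1c varied among GMP libraries, with 136, 5.33 and 202 CPM.

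The transcription factors of the 2 sides moved apart. Of 18 erythroid and megakaryocytic factors tested, 14 were called higher in MEP and 4 higher in GMP, with a median log2 change of 1.48 against -0.04 over all genes. Gata1 stood at 3.82, 2.11 and 4.22 CPM in GMP and at 197, 195 and 179 CPM in MEP (5.86, SE 0.29, adjusted p = 9.18e-09), with a KO change of 5.57. Gfi1b, a repressor needed for red cells and megakaryocytes, went from 1.88, 1.89 and 3.88 to 200, 207 and 186 CPM (6.35, SE 0.24). Zfpm1 (FOG1), the cofactor of Gata1, went from 14.5, 16.8 and 19.1 to 249, 254 and 301 CPM (adjusted p = 4.97e-10), and the bridging protein Ldb1 from 154, 167 and 149 to 635, 574 and 457 CPM (1.82). Bcl11a, the globin repressor, rose by 2.20. Gata2, which acts ahead of Gata1, differed less, at 17.6, 12.4 and 17.1 CPM in GMP and 31.4, 23.5 and 19.9 CPM in MEP (0.66, adjusted p = 0.0293, and 0.0729 to 0.161 without the GMP of mouse 1 or 2 or the MEP of mouse 1 or 2), and its CMP mean of 74.9 CPM was above both. The 4 higher in GMP were Fli1 (-3.68), which drives megakaryocyte genes, Mef2c (-2.01), Lyl1 (-1.42) and Nfe2 (-0.78).

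Of 13 granulocyte-monocyte factors tested, 9 were called higher in GMP and 1, Nfe2l2 (1.25), higher in MEP, with a median of -3.32. Cebpa, Cebpb and Cebpd have no listed intron and were not measured. Spi1 stood at 156, 160 and 146 CPM in GMP and at 3.58, 2.42 and 2.11 CPM in MEP (-5.85, SE 0.20, adjusted p = 6.84e-10). Gfi1, the paralogue of Gfi1b, ran opposite to it, from 59.2, 65 and 50.6 CPM in GMP to 0.66, 0.149 and 0.105 CPM in MEP (-7.66, SE 0.47). Irf8, the factor of monocytes and dendritic cells, was at 94.8, 124 and 114 against 2.43, 0.642 and 0.747 CPM (-6.53), with a CMP mean of 156 CPM above the GMP mean. Cebpe, a late granulocyte factor, fell by 6.54 on the log2 scale, Irf5 by 5.55 and Etv6 by 2.31.

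**Figure D2:**
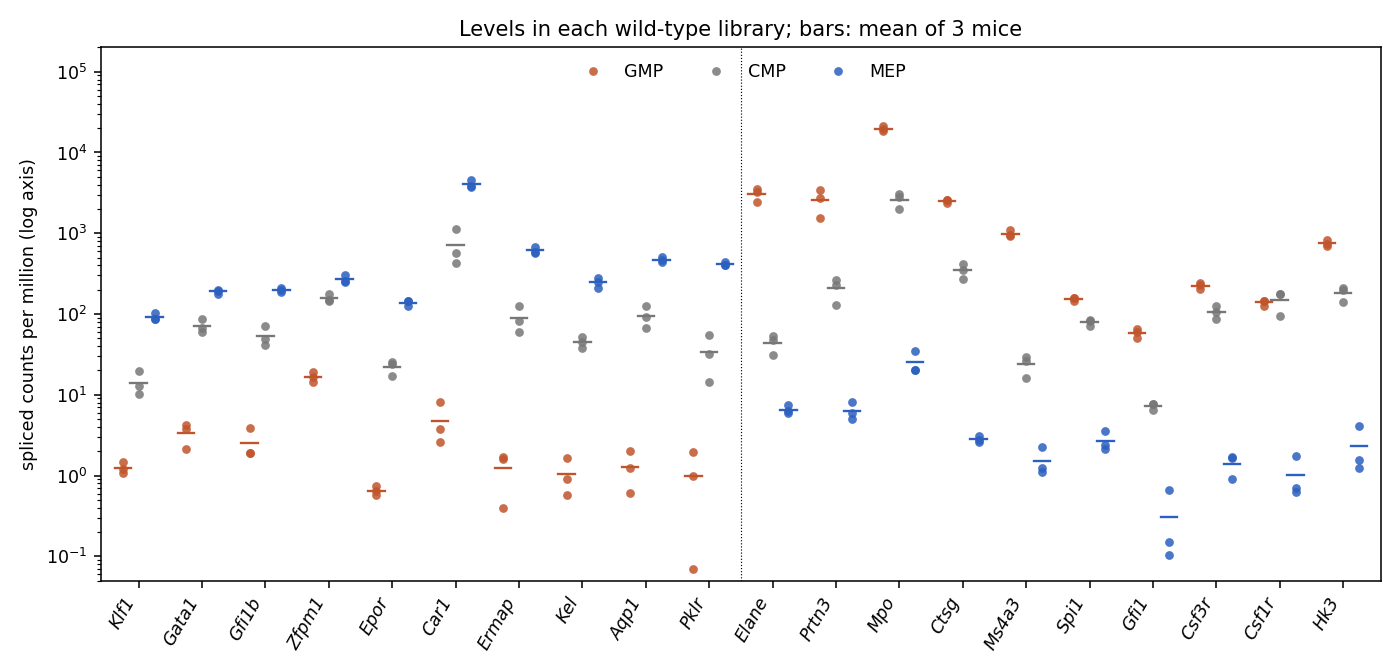
CPM (log axis) in each WT library for 10 genes higher in MEP and 10 higher in GMP, with 1 point per mouse for GMP, CMP and MEP and a bar at each mean. GMP and MEP points do not overlap in any of the 20 genes, and Klf1 rises from a mean of 1.24 to 92.1 CPM while Elane falls from 3057 to 6.54 CPM.

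Promoters of 5 strongly changed genes are shown, because Gata1, Klf1 and Spi1 bind short DNA motifs and their genes changed here. They are examples chosen by name and not a sample of the called genes. Mpo was left out because its window begins in an annotated exon. The sequences are from RefSeq (GRCm38.p6), cover at most 150 bases before the start of transcription without any annotated exon, and run 5′ to 3′ on the gene's strand. Capitals mark GATA letters (GATA with A or T before it and A or G after it, on either strand), CACCC-type letters (CCNCNCCC on either strand) or the purine-rich ETS letters GAGGAA on either strand. Windows are given for Klf1 (chr8:84901832-84901927, plus strand), Epor (chr9:21963577-21963726, minus), Ermap (chr4:119190012-119190145, minus), Elane (chr10:79886162-79886246, plus) and Prtn3 (chr10:79879517-79879613, plus).
Klf1: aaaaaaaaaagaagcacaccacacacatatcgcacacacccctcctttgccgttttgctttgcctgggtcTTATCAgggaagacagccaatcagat
Epor: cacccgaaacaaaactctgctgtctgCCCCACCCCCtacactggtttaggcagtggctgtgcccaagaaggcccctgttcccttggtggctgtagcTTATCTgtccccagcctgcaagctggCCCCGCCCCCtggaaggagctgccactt
Ermap: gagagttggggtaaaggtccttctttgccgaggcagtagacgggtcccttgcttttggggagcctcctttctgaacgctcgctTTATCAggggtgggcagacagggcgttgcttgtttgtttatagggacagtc
Elane: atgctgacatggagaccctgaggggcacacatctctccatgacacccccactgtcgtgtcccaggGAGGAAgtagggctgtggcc
Prtn3: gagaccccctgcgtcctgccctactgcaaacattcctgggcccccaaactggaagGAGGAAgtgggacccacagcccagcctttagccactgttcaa

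The GATA letters begin 80 bases before the RefSeq start in Klf1, 54 in Epor and 67 in Ermap, and GAGGAA begins 85 bases before it in Elane and 95 in Prtn3. Each match is a description of the letters and not a binding site. In the 150 bases before the start, GATA letters were present in 16% of all 32851 promoters, in 10.5% of those of genes tested, in 14.1% of the 1106 promoters of genes at least 2-fold higher in MEP and in 10.7% of the 2586 promoters of genes at least 2-fold higher in GMP. GAGGAA was present in 14.1% of promoters of genes tested, 12.1% of the MEP-high and 18% of the GMP-high ones. CCNCNCCC was present in 51.4%, 55% and 53.9%, and the C/EBP letters TTGCNNAA in 4.4%, 4.34% and 5.38%.

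Of 18 cytokine receptors, 4 were called higher in MEP, near the 21% of all genes, and 13 higher in GMP, against 24.3% (median -1.99). Epor, the erythropoietin receptor, stood at 0.745, 0.64 and 0.574 CPM in GMP and at 147, 124 and 144 CPM in MEP (7.72, SE 0.19, adjusted p = 1.52e-10). Csf3r, the G-CSF receptor, was at 240, 230 and 204 against 1.69, 0.911 and 1.63 CPM (-7.32, SE 0.39), and Csf1r, the M-CSF receptor, was at 127, 145 and 146 against 0.705, 0.628 and 1.73 CPM (-7.08, SE 0.53). Csf1r was as high in CMP, at 151 CPM on average, as in GMP. The shared beta chain Csf2rb fell by 7.21 on the log2 scale and Il3ra, the IL-3 receptor alpha chain, by 3.26. Flt3 was at 39.4, 37.7 and 49.6 CPM in GMP and at 8.5, 2.85 and 3.85 CPM in MEP, both far below its CMP mean of 420 CPM.

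Genes for surface proteins widely used to sort these cells were in the list of 10 sorting markers, of which 2 were called higher in MEP and 6 higher in GMP, with Ly6a, whose counts are shared, among the 10. Cd34 stood at 270, 312 and 362 CPM in GMP and at 2.79, 1.02 and 2.85 CPM in MEP (-7.17, SE 0.47, adjusted p = 1.05e-07). The Fc receptor genes were at 125, 130 and 116 against 0.255, 0.0897 and 0.388 CPM for Fcgr3 and at 129, 138 and 144 against 0.39, 0.149 and 0.493 CPM for Fcgr2b (-8.63). Whether these proteins were used in the sort cannot be told from the labels, and a gene used for it would differ by selection. Kit was at 297, 352 and 362 CPM in GMP and at 622, 466 and 326 CPM in MEP, where the groups overlapped (0.45, adjusted p = 0.0465, and 0.101 to 0.312 without the GMP of mouse 1 or 2 or the MEP of mouse 1 or 2). Itga2b (CD41) was at 121, 111 and 163 against 35.5, 22 and 13.5 CPM (-2.55), and Eng (endoglin) rose by 1.95.

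Red cell membrane and blood group genes moved together: 18 of 19 tested were called higher in MEP and none higher in GMP, with a median of 7.53. Their summed level was 198 to 227 CPM in GMP and 9267 to 10129 CPM in MEP. Aqp1, the water channel, was at 1.24, 0.605 and 2.02 CPM in GMP and 501, 471 and 438 CPM in MEP (8.61), and Kel, the Kell antigen, at 1.67, 0.571 and 0.911 against 279, 252 and 207 CPM (7.92). Car2, carbonic anhydrase II, was at 19.5, 17 and 26.6 against 2673, 2641 and 2431 CPM (6.98). The exception was Slc4a1, the band 3 anion exchanger of maturing red cells, at 1.37, 1.99 and 4.18 CPM in GMP and 2.79, 1.7 and 2.47 CPM in MEP (-0.02, adjusted p = 0.976), with overlapping groups and a sign that turned under some settings.

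Haem synthesis showed 13 of 16 genes higher in MEP and 1 higher in GMP (median 1.73). The exception was the first enzyme of the pathway. Alas1, its housekeeping form, stood at 639, 724 and 707 CPM in GMP and at 40.2, 37.1 and 30.9 CPM in MEP (-4.27, adjusted p = 1.52e-10), while Alas2, its erythroid form, was at 2, 2.53 and 3.96 against 6.18, 3.38 and 3.33 CPM, with overlapping groups (0.62, adjusted p = 0.233). The later enzymes rose. Alad went from 59.6, 64.5 and 60.8 to 413, 429 and 455 CPM (2.81), and Cpox from 26.6, 29.1 and 29.6 to 296, 290 and 332 CPM (3.42). Urod and Fech each rose by 2.09 and the mitochondrial glycine carrier Slc25a38 by 1.99.

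**Figure D3:**
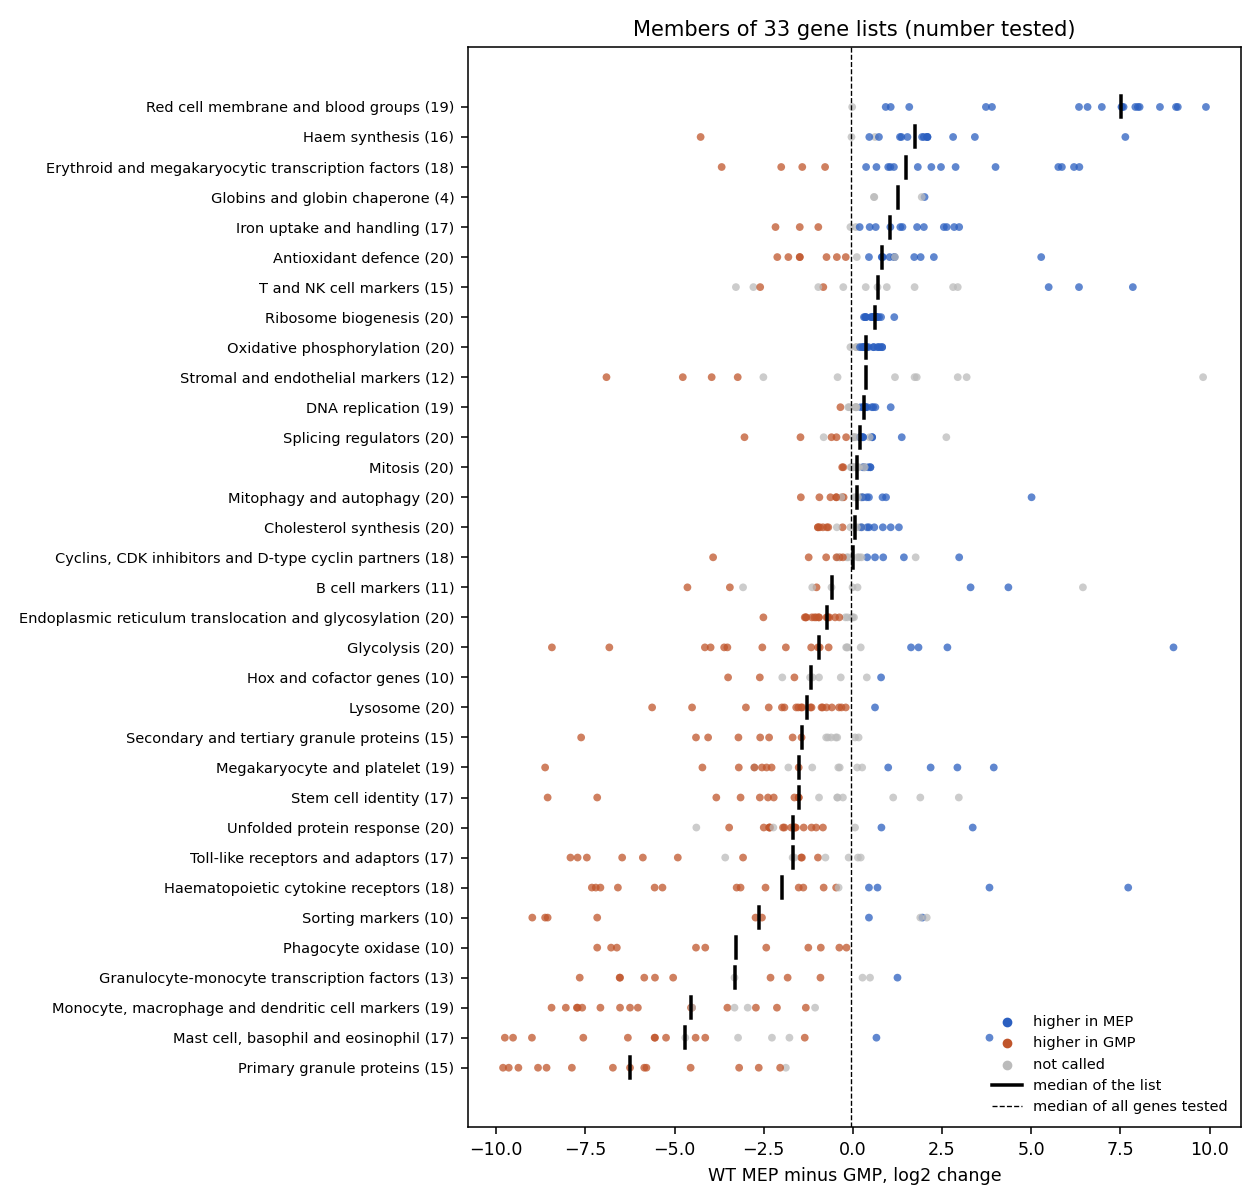
Log2 change (MEP minus GMP) of every tested member of 33 gene lists, one row per list, with blue for genes called higher in MEP, red-brown for genes called higher in GMP, grey for genes not called, a black bar at the list median and a dashed line at the median of all genes (-0.04). Red cell membrane genes lie farthest to the MEP side (median 7.53) and primary granule genes farthest to the GMP side (median -6.25).

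Of 17 genes of iron handling, 12 were higher in MEP and 3 higher in GMP (median 1.05). Tfr2, the second transferrin receptor and a partner of Epor, was at 60.9, 53.4 and 64.9 CPM in GMP and at 456, 422 and 401 CPM in MEP (2.84), and the iron transporter Slc11a2 rose by 2.63. Tfrc, the main transferrin receptor, rose less, from 209, 101 and 169 to 350, 341 and 531 CPM (1.39, adjusted p = 3.54e-05), and the ferritin heavy chain Fth1 by 1.33. Ncoa4, which takes ferritin to be degraded, went the other way, from 242, 275 and 295 to 62.2, 59.9 and 56.9 CPM (-2.17). Of the 4 adult globin genes tested, which are close copies of each other, Hba-a1 was called. It was at 6.61, 3.27 and 29.2 CPM in GMP and at 27.4, 23.5 and 61.8 CPM in MEP (2.01, SE 0.74, adjusted p = 0.0442), and the groups overlapped as both libraries of mouse 3 were high. The call of Hba-a1 was lost without any library but the MEP of mouse 3 (adjusted p = 0.0648 to 0.184) and with no replicate block (0.324). Hba-a2 changed about as much but was not called (1.93, adjusted p = 0.063), and it passed the threshold under 4 of 16 alternatives (lowest adjusted p = 0.0159). Hbb-bs (0.60, adjusted p = 0.565) and Hbb-bt (0.59, adjusted p = 0.564) were not called.

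Of 19 megakaryocyte and platelet genes, 4 were higher in MEP, near the 21% of all genes, and 8 higher in GMP, against 24.3% (median -1.52). Their summed level was 195 to 280 CPM in GMP and 47.7 to 83.3 CPM in MEP. Pf4, platelet factor 4, was at 5.49, 6.75 and 11.3 CPM in GMP and 0.375, 2.17 and 0.448 CPM in MEP (-3.20), against 68.2 CPM on average in CMP. Itgb3, the integrin chain of the fibrinogen receptor, was at 6.22, 10.8 and 13.2 against 0.81, 0.538 and 0.254 CPM (-4.22), against 32.9 CPM in CMP. Selp, P-selectin, was at 3.49, 1.73 and 3.11 CPM in GMP and had 1 count in all MEP, a ratio of 548 (95% counting interval 97.8 to 21677). Cd9 was lower in MEP (-2.42), and the thrombin receptor F2r was higher (2.93).

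Primary granule proteins, made early in granulocytes, were called higher in GMP in 14 of 15 genes and higher in MEP in none (median -6.25). Together they took 2.86 to 3.38% of all spliced counts in GMP and 0.0165 to 0.0241% in MEP. Prtn3, proteinase 3, was at 3418, 2748 and 1556 CPM in GMP and at 8.14, 5.02 and 5.99 CPM in MEP (-8.59), and Srgn, the proteoglycan core that binds granule proteases, was at 819, 734 and 653 against 136, 125 and 93.7 CPM (-2.64). Secondary and tertiary granule genes, which come on later, summed to 143 to 207 CPM in GMP and to 22.7 to 79.4 CPM in MEP, and 8 of 15 were called higher in GMP and none higher in MEP. Among them Ly6g fell by 7.62 on the log2 scale, the oxidase subunit Cybb by 4.40 and Lcn2 (lipocalin 2) by 2.60.

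All 10 phagocyte oxidase genes were called higher in GMP (median -3.28). Ncf1, the p47phox subunit, was at 246, 258 and 216 CPM in GMP and at 3.21, 0.882 and 1.21 CPM in MEP (-7.17), Ncf4 fell by 6.78 on the log2 scale, and the small GTPase Rac2 by 2.43. Of 17 Toll-like receptor and adaptor genes, 10 were higher in GMP and none higher in MEP (median -1.69). They included the adaptor Ticam2 (-6.47) and Unc93b1, the chaperone of the endosomal receptors, at 163, 185 and 151 against 3.94, 2.76 and 1.96 CPM (-5.89). Monocyte, macrophage and dendritic cell markers were higher in GMP in 15 of 19 (median -4.54), with F13a1, coagulation factor XIII A, at 262, 271 and 234 against 0.81, 1.06 and 1.03 CPM (-8.05) and Ctss, cathepsin S, at -4.51.

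Genes of mast cells, basophils and eosinophils were higher in GMP in 11 of 17 and higher in MEP in 2 (median -4.70), and their sum ranged from 637 to 1729 CPM over GMP libraries and from 74 to 127 CPM over MEP libraries. Prg2, the eosinophil major basic protein, was at 855, 137 and 89.3 CPM in GMP and at 23.2, 9.2 and 6.5 CPM in MEP (-4.41, adjusted p = 0.0115), and Epx, eosinophil peroxidase, at 219, 46.4 and 37 against 6.12, 1.26 and 0.777 CPM (-5.24). In both genes mouse 1 was highest in both cell types, and the call of Prg2 was lost without the GMP of mouse 2 (adjusted p = 0.0885) or the MEP of mouse 1 (0.0532). The part of such cells in the other GMP results was not tested.

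Stem cell genes were called higher in GMP in 10 of 17, with Ly6a and its shared counts among the 17, and higher in MEP in none (median -1.52), and for Meis1 (-2.61) the CMP mean of 51.8 CPM was the highest of the 3 cell types. T and NK cell markers, 3 of 15 called higher in MEP and 2 in GMP, summed to 6.56 to 9.39 CPM in GMP and 6.68 to 11.4 CPM in MEP, Cd4 included, with Lck at 2.88, 2.49 and 2.38 against 3.12, 1.78 and 1.66 CPM. B cell markers, 2 of 11 called higher in MEP and 3 in GMP, summed to 95.5 to 104 CPM in GMP and 13.7 to 42.7 CPM in MEP, with Cd79b (-4.64) and Ighm (-3.45) higher in GMP and Dntt (4.36) higher in MEP but highest in CMP, at 179 CPM, while Pax5, Ms4a1 and Rag1 were too low to be tested. Stromal and endothelial markers, 4 of 12 called higher in GMP and none in MEP, summed to 141 to 189 CPM in GMP and 19.8 to 51.3 CPM in MEP, with Pecam1, which blood cells also express, at -3.96, and with Cdh5, Cxcl12 and Pdgfra too low to be tested. The part of other cell types in the results was not tested.

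In glycolysis, 12 of 20 genes were higher in GMP and 4 higher in MEP (median -0.96). For 3 enzymes, separate genes that encode them moved in opposite directions. Pkm, the general pyruvate kinase, stood at 1273, 1265 and 1171 CPM in GMP and at 16.1, 7.75 and 9.7 CPM in MEP (-6.83, adjusted p = 2.49e-09), while Pklr stood at 0.981, 0.0692 and 1.94 against 408, 404 and 442 CPM. Among the hexokinases, Hk3 was at 731, 832 and 686 against 4.12, 1.55 and 1.25 CPM (-8.44), whereas Hk1 rose by 1.63. Among the phosphofructokinases, Pfkp was lower in MEP (-2.54) and Pfkm higher (2.65). Pgam1 fell by 3.99 on the log2 scale, Gpi1 by 1.88 and the glucose transporter Slc2a1 by 4.15. Oxidative phosphorylation genes were called higher in MEP in 16 of 20 and higher in GMP in none, with small changes (median 0.38), Sdhb (0.82) and Ndufs1 (0.76) among the largest.

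All 20 ribosome biogenesis genes were called higher in MEP (median 0.61), and their sum was 8496 to 9439 CPM in GMP and 12335 to 15240 CPM in MEP. The RNA polymerase I subunit Polr1b rose by 0.79 and the nucleolar Nolc1 by 0.73. Lysosome genes went the other way in 19 of 20, with 1 higher in MEP (median -1.30), with the protease Ctsh at -5.63 and the mannosidase Man2b1 at -2.36. Genes of endoplasmic reticulum translocation and glycosylation were higher in GMP in 15 of 20 and higher in MEP in none (median -0.73), with Calr, the chaperone calreticulin, at 4796, 4313 and 4504 CPM in GMP and at 691, 839 and 862 CPM in MEP (-2.51). Unfolded protein response genes were higher in GMP in 15 of 20 and higher in MEP in 2 (median -1.69). The sensor Ern1 (IRE1) was at 174, 211 and 215 against 21.6, 17.2 and 15.8 CPM (-3.47), and its target Xbp1 was at 66.9, 64.3 and 66.1 against 10.9, 13 and 15.2 CPM (-2.35).

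Antioxidant genes split by member, with 11 of 20 higher in MEP and 7 higher in GMP (median 0.81). Prdx2, the red cell peroxiredoxin, was at 223, 220 and 210 CPM in GMP and at 756, 800 and 893 CPM in MEP (1.90), and mitochondrial Txnrd2 rose by 1.72, while glutathione reductase, Gsr, fell by 2.12 on the log2 scale. Autophagy genes split evenly, 7 of 20 each way (median 0.11), with the receptor Optn at 5.67, 4.13 and 3.33 against 165, 148 and 109 CPM (5.01). Cholesterol synthesis also split, 7 of 20 each way (median 0.07), from Hmgcs1 at -0.98 to Lss at 1.29. Hox and cofactor genes were higher in GMP in 3 of 10, a share near the 24.3% of all genes, and higher in MEP in 1 (median -1.17), with Hoxa7 at -3.50 and Hoxa9 at -1.64.

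DNA replication genes were higher in MEP in 12 of 19 and higher in GMP in 1 (median 0.30, against -0.04 over all genes), with the loading factor Cdc6 at 1.06 and the helicase subunit Mcm2 at 0.53. Mitosis genes were higher in MEP in 5 of 20 and higher in GMP in 2 (median 0.12), where 21% of all genes were higher in MEP and 24.3% higher in GMP, so the share higher in MEP is near that of all genes. Of 18 cyclin and CDK inhibitor genes, 5 were higher in MEP and 6 in GMP (median 0.00). Ccne1, cyclin E1, was at 23, 19.2 and 21.9 CPM in GMP and at 137, 159 and 215 CPM in MEP (2.98), E2f4, which is needed for red cell growth, rose by 1.43, and the inhibitor Cdkn1a (p21) fell by 3.92. Splicing regulators were higher in MEP in 9 of 20 and higher in GMP in 5, the latter near the 24.3% of all genes (median 0.20). Celf2 was at -3.04, Mbnl2 at -1.47 and Celf1 at 1.37.

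The change between MEP and GMP differed between genotypes in 1 gene of 17563 (0.00569%), while 457 (2.6%) had an unadjusted p under 0.05 and DESeq2 called 166. Syne2, which encodes a nuclear envelope protein that links to the cytoskeleton, stood at 5.06, 8.6 and 9.01 CPM in WT GMP and at 0.165, 0.179 and 0.149 CPM in WT MEP (-5.48, SE 0.30). In KO it was at 5.78, 9.28 and 8.41 CPM in GMP and at 3.4, 2.57 and 1.92 CPM in MEP (-1.62, SE 0.24). All KO MEP libraries were above all WT MEP libraries, and the GMP libraries overlapped. The difference of the changes was 3.85 (SE 0.37, adjusted p = 0.00624), and its adjusted p was 0.0659 without the MEP library of WT mouse 2 and 0.0606 without that of WT mouse 3.

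Intron retention was measured as the percent of exon-intron reads, 100 times the reads at both ends over these reads plus 2 times the spliced reads. Its median over introns was 2.96, 3.02 and 3.23% in GMP of mice 1, 2 and 3 and 3.01, 2.76 and 2.53% in MEP. Of 62278 introns tested, 150 (0.241%) in 113 genes were called by edgeR's diffSpliceDGE, 65 (0.104%) more retained in MEP and 85 (0.136%) more retained in GMP. A quasi-likelihood model with a term per library called 84 (0.135%), and 61 of the 150 were called by this model and by limma as well. Without any 1 of the 6 libraries diffSpliceDGE called 77 to 98. In 8 of the 150 the gene had shared counts as described above. All 150 had groups that did not overlap (5.38% of introns tested had all MEP above all GMP libraries, and 9.63% the reverse) and the same sign in KO. In 74 of them (49.3%, against 21.2% of introns tested) over 90% of the exon-intron reads of the higher group lay at 1 end, and 76 were overlapped by an annotated exon of the same gene, so that an exon end inside the intron and a retained intron cannot be told apart there. Of the 51 introns more retained in MEP whose gene was called for level, 30 lay in genes higher in GMP. Of 64 such introns more retained in GMP, 31 lay in genes higher in MEP. Among all 7955 genes called for level, 4271 were higher in GMP and 3684 (46.3%) higher in MEP. Both intron counts are near this general split.

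Setting Mmp14 aside, 8 introns were called by all 3 tests, with reads at both ends, and net of reads of longer introns, of 9 in all, and 3 of the 8 were more retained in MEP. In intron 9 of Clstn1, a calsyntenin (chromosome 4, 149634920 to 149635233), retention was 8.33, 4.6 and 3.59% in GMP and 61, 63.8 and 73.2% in MEP, a log2 ratio change of 5.06 (SE 0.47, adjusted p = 0.000964). Intron 5 of Vat1, a vesicle membrane protein (chromosome 11, 101460277 to 101460376), was at 4.67, 5.2 and 4.45 against 44.3, 36.5 and 53.5% (4.01), while the gene's level fell by 5.33. Intron 5 of Psmb10, an immunoproteasome subunit (chromosome 8, 105936755 to 105936865), was at 3.33, 2.78 and 3.29 against 13.5, 14.8 and 20.7% (2.57). In each of these 3 introns every MEP library was far above every GMP library.

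The other 5 had a higher percent of exon-intron reads in GMP. Intron 9 of Tbc1d2, a Rab GTPase activator (chromosome 4, 46614425 to 46615026), was at 74.7, 85.9 and 69.2% in GMP against 0, 0 and 5.56% in MEP, on 9, 9 and 17 spliced reads (-6.52, SE 0.82, adjusted p = 0.00494), a call lost without the GMP of mouse 3 (adjusted p = 0.0689) or the MEP of mouse 1 (0.06) or 2 (0.12). Intron 28 of Abca3, a lipid transporter (chromosome 17, 24405440 to 24407557), was at 27.7, 30 and 25.7 against 5.05, 3.25 and 2.42% (-3.43), in a gene whose level rose by 2.54 in MEP. Intron 23 of Fanca, of the Fanconi anaemia repair complex (chromosome 8, 123289498 to 123289798), was at 14.8, 6.98 and 14.1 against 0.562, 0.639 and 0.785% (-4.16). The next intron, 24, was at 11.8, 14.3 and 13.6 against 0.132, 1.41 and 0%. The call of intron 24 was lost without the GMP of mouse 1 (adjusted p = 0.0518) or 3 (0.217) or the MEP of mouse 1 (0.0993) or 3 (0.0779). Intron 3 of Plppr3 was at 48.7, 45.4 and 45.8 against 0, 7.14 and 1.54% (-4.97), with 24, 13 and 32 spliced reads in MEP. Intron 16 of Arhgef1 (chromosome 7, 24918001 to 24919630), at 79.6, 77.9 and 73.6 against 16.4, 14.1 and 11.8% (-4.35), spans an exon that is described with the junctions. Its spliced reads are those that skip this exon, so at a given number of exon-intron reads the percent falls as skipping rises. A change in retention and the switch of the exon cannot be told apart in it.

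**Figure D4:**
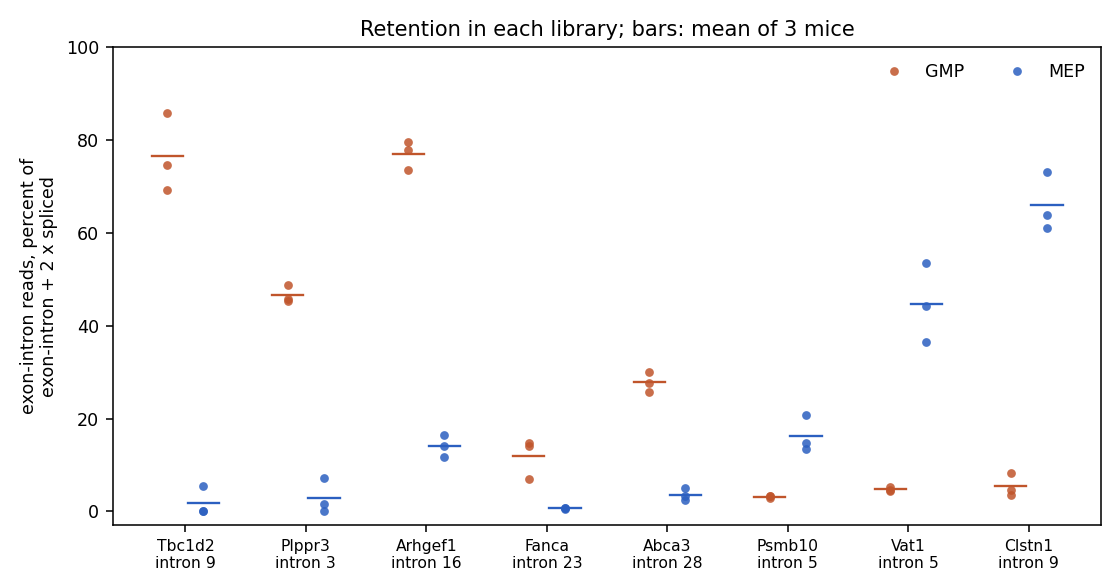
Percent of exon-intron reads in each of the 3 WT GMP and 3 WT MEP libraries for the 8 introns, with 1 point per library and a bar at each group mean. Psmb10, Vat1 and Clstn1 are higher in MEP and the other 5 are higher in GMP, and the groups do not overlap in any of the 8. The spliced reads of the Arhgef1 intron are those that skip an exon inside it.

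Introns of lineage genes were among the 150. Intron 1 of Csf2ra, the GM-CSF receptor alpha chain, was at 1.45, 2.17 and 3.08% in GMP and 55, 65.4 and 73% in MEP (6.30, adjusted p = 0.00164), with 96.4% of the reads at 1 end, and the gene's level changed by -2.45. Intron 4 of Cd68, a lysosomal glycoprotein of macrophages, was at 3.64, 4.08 and 6.61 against 39.1, 34.5 and 21.1% (3.19, adjusted p = 0.00311). Intron 1 of Tal1, the partner of Gata1, went the other way, at 61.1, 62.9 and 64.6 against 11.1, 9.73 and 11.3% (-3.78, adjusted p = 0.00985), with 93.2% of the reads at 1 end, and its level rose by 2.88. Groups did not overlap in any of the 3 genes, but each call was lost without some of the libraries. The adjusted p was 0.0594 and 0.0525 for Csf2ra without the GMP of mouse 1 or 2. It was 0.0952, 0.109, 0.0819 and 0.0516 for Cd68 without the GMP of mouse 1 or 2 or the MEP of mouse 1 or 2, and 0.123, 0.1, 0.12 and 0.184 for Tal1 without the GMP of mouse 2 or 3 or the MEP of mouse 1 or 2.

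Competing junctions, introns that share one end, were compared as shares of the spliced reads at that end, after taking out reads of longer introns. Of 8235 junctions tested at 4039 ends, diffSpliceDGE called 206 (2.5%) in 127 genes, 194 (2.36%) of them with a change of 10 percentage points or more and 70 with over 50. The groups did not overlap in 205 of the 206, against 2044 of 8235 (24.8%), and 203 had the same sign in KO. First exons made up 104 of the 206 (50.5%) and 1340 of the 8235 tested (16.3%), included exons made up 46 (22.3%, against 41.1% of those tested), skipped exons 30 (14.6%, against 30.5%), and alternative 5′ and 3′ splice sites 2 each. Of the 127 genes, 44 were called higher in MEP and 61 higher in GMP for level, and 22 were not called. The share called for level was 82.7% of these genes, 63.5% of the 2193 genes with a junction tested and 45.3% of all genes. In 4 of the 206 junctions the gene had shared counts. Without the MEP of mouse 2 the count was 133, and limma called 508.

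First-exon changes included genes of glycolysis, transcription and iron. Hk1 is known to have an erythroid first exon. A first-exon junction of Hk1 (chromosome 10, 62315549 to 62342500) was at 0% in all GMP and at 23.1, 18.7 and 26.3% in MEP (adjusted p = 3.94e-06). Whether it is the junction of the erythroid exon was not tested. In Ldb1 one first-exon junction (chromosome 19, 46036366 to 46039054) went from 47, 50.6 and 34.3% to 90.8, 88.9 and 85% (adjusted p = 0.000546). In Ncoa4, a first-exon junction (chromosome 14, 32165823 to 32170747) held 47.9, 48.3 and 42.5% in GMP and 3.32, 0 and 2.74% in MEP (adjusted p = 1.04e-08).

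In Specc1, a cytoskeletal coiled-coil protein, the junction on chromosome 11, 61956890 to 62029252, was at 0, 0 and 6.06% in GMP against 92.9, 92.5 and 98.9% in MEP (adjusted p = 1.73e-05). The junction switched in every mouse, and the level of Specc1 changed by 1.74.

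**Figure D5:**
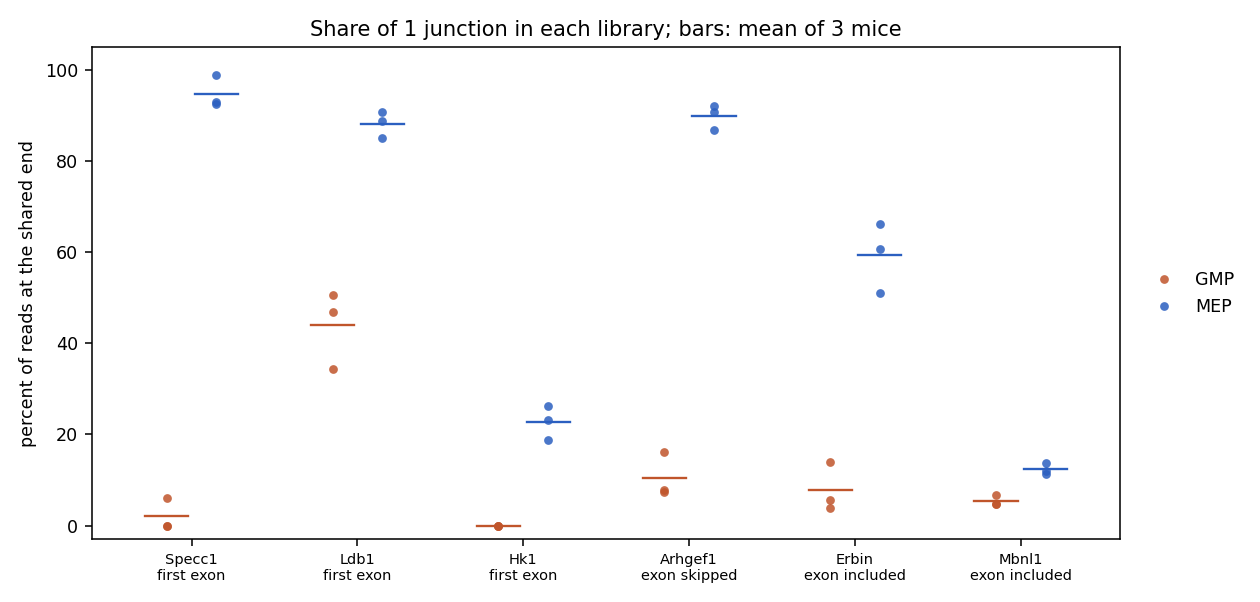
Share of spliced reads at the shared end (percent) in each of the 3 WT GMP and 3 WT MEP libraries, for first-exon junctions of Specc1, Ldb1 and Hk1, skipping of an exon of Arhgef1, and inclusion of exons of Erbin and Mbnl1. Groups do not overlap in any of the 6, and Arhgef1 goes from 10.5 to 90%.

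To show the switches in internal exons, 3 cassette exons are given, with 20 flanking bases of the neighbouring exons in lower case and the exon in capitals, 5′ to 3′ (mm10, GENCODE M21). They lie in Arhgef1, a guanine nucleotide exchange factor (chr7:24919184-24919351, plus strand), Erbin, a scaffold protein (chr13:103830188-103830331, minus strand), and Mbnl1, a splicing regulator (chr3:60614683-60614736, plus strand).
Arhgef1: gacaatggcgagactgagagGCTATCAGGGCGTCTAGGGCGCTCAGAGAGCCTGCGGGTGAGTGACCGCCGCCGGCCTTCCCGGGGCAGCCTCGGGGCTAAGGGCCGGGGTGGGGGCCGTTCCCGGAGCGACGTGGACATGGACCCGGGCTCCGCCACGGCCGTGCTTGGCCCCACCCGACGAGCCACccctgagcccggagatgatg
Erbin: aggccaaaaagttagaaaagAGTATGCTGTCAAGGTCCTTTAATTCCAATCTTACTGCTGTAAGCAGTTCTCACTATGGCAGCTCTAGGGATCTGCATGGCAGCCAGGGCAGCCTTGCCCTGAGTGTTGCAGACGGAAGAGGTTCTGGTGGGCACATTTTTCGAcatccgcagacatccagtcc
Mbnl1: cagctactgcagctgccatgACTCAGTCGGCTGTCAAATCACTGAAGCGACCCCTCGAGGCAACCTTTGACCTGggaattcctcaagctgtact

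All 3 exons have lengths that are multiples of 3, with 168 bases with 75% G or C in Arhgef1, 144 bases with 50.7% in Erbin and 54 bases with 55.6% in Mbnl1. The Arhgef1 exon was skipped in 7.4, 7.79 and 16.2% of reads at its end in GMP and in 90.7, 92.2 and 86.9% in MEP (adjusted p = 6.34e-09), with 365, 398 and 247 reads at that end in GMP and 648, 553 and 680 in MEP. The reads spliced to the exon itself went from 53.6 to 7.22% on average, and those to another site inside the intron from 35.9 to 2.82%. Skipping rose from 7.94 to 86.4% in KO, and the level of Arhgef1 changed by -0.34. The Erbin exon was included in 5.63, 13.9 and 3.92% in GMP and in 51.1, 60.8 and 66.3% in MEP (adjusted p = 2.69e-06). These shares are of reads at the end of a neighbouring 117-base exon, so transcripts without that exon are not counted. On the other side of the Erbin exon (103830332 to 103833497) inclusion was also higher in MEP under 11 of 11 alternatives (adjusted p at most 0.00538). Inclusion of the 117-base exon was called higher in MEP too, a call lost under 7 of 11 alternatives (adjusted p up to 0.387). The Mbnl1 exon was included in 6.8, 4.73 and 4.71% in GMP and in 11.3, 12 and 13.7% in MEP, a small shift without overlap (adjusted p = 0.00113, and 0.0648 and 0.0581 without the GMP of mouse 3 or the MEP of mouse 2). At the junction on the other side of the Mbnl1 exon (60613521 to 60614682) inclusion was 9.16, 5.1 and 8.71% against 12.8, 13.2 and 13.7% (adjusted p = 0.0468), a call lost under 9 of 11 alternatives, with adjusted p up to 0.95. The largest change in percentage points among the 206, skipping of a 99-base exon of the semaphorin Sema4a at 1.16, 2.94 and 7% in GMP and 92.9, 100 and 100% in MEP (adjusted p = 0.00428), rested on 14, 8 and 5 reads at that end in MEP, and its call was lost without the GMP of mouse 1 (adjusted p = 0.0779) or the MEP of mouse 2 (0.085).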

How the data were processed

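The deposited tables give, per annotated intron (GENCODE M21 identifiers; mm10 per the submitters' processing notes), whole counts of exon-intron reads at each end and of spliced reads, the covered fraction of the intron, and a percent of exon-intron reads. Per the file headers these were made by the authors; the software for alignment and counting is not given in the sources used here, and no use of strand is recorded, so genes on opposite strands that overlap cannot be separated. Per the labels' protocols, total RNA was extracted and polyA-selected. The percent recomputed from the deposited counts was used, and the covered fraction the authors deposited was not tested.

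Spliced counts were summed over a gene's introns (31890 genes, 219945 introns, 1887 of them in more than 1 gene). All 18 progenitor libraries entered one fit, with a coefficient per mouse (the replicate block) and one per cell type within genotype, in edgeR 4.0.16 (R 4.3.3; TMM, filterByExpr, glmQLFit and glmQLFTest, Benjamini-Hochberg adjustment). The pairing comes from the design text, which has the 3 cell types from the same littermates. Deviations from the group means correlated between the GMP and MEP of a mouse at 0.0328, 0.0521 and -0.0101 in WT and 0.0205, -0.043 and -0.0309 in KO. Between the GMP and MEP of different mice the correlations ran from -0.0537 to 0.0203 in WT and from -0.0439 to 0.0731 in KO. The p-values rest on how the differences between cell types vary from mouse to mouse, pooled over all 18 libraries of both genotypes. Retention and junction use were tested with diffSpliceDGE, which on simulated data called more unchanged introns than its threshold states, so a quasi-likelihood model and limma 3.58.1 stand beside it. Log2 ratios carry 0.5 counts on each side. For introns the log2 ratio change and its SE come from limma in the same design, and the adjusted p from diffSpliceDGE. Junction ends needed a mean of 20 spliced reads and introns 5% of them. DESeq2 1.42.0 served as an alternative.

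The spliced count of an intron includes reads that span longer listed introns around it. Whether reads across unlisted ones add to it was not tested. For junctions, counts of longer listed introns were subtracted, a departure from the plan, since 26987 introns lie inside a longer one. Counts equal to those of a neighbour within 2% or 1 read in all 3 libraries of a group, within 500 kb, marked the 256 genes with shared counts. In 1120 of the genes tested over 10% of counts came from longer introns of other genes that enclose introns of the gene. Intervals and floors cover counting error only.

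Named genes were Klf1 and Elane, up to 15 per direction with the largest change among called genes without overlap and with at least 20 CPM, and 5 members of each list with the smallest p (3 with the highest CPM for other cell types). Introns were up to 8 per direction and junctions up to 10 by size, with those of list genes. The 4 erythroid factors and 1 granulocyte-monocyte factor against their list's direction, Tal1 and Csf2ra for level, the 8 introns and Gata1, Gata2, Tfrc, Kit, Pf4, Irf8, Prtn3, Hk1, Hk3, Alas2, Slc4a1, Slc2a1, Vat1, Psmb10, Specc1, Arhgef1, Erbin, Mbnl1 and Zrsr2 were chosen after their values were seen. The comparison, its members and all lists were chosen with earlier results of these data known. Motif letters were searched in RefSeq promoters. Some genes of the lists are not reported here by name.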

Additional observations from a re-analysis of the deposited data

Results flagged for a closer look

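The change of Syne2 between MEP and GMP differed between genotypes by a test of the difference itself, with a KO minus WT difference of 3.85 on the log2 scale (SE 0.37, adjusted p = 0.00624, edgeR quasi-likelihood test). It was lower in all 3 WT MEP libraries than in all 3 KO MEP libraries, and it was the only gene of 17563 past the threshold, against 457 at an unadjusted p under 0.05 and 166 past the threshold by DESeq2. Of the next genes, F10 had a difference of 3.15 (adjusted p = 0.127) and Rdh12 of 2.88 (adjusted p = 0.166).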

How the results depend on the processing

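The count of called genes stayed within 1.5 times its value under each alternative: 6585 to 8787 for WT (6841 to 7416 without 1 library, 8050 with no replicate block) and 7486 to 8813 for KO (6801 to 7343 without 1 library, 7991 with no replicate block). The genotype difference gave 166 genes with DESeq2, 2 with no filter, 2 with no replicate block and 0 to 3 without 1 library, 0 without the MEP of WT mouse 2 or 3. Retained introns numbered 61 where no annotated exon overlapped, 84 by the quasi-likelihood model, 37 from the smaller end, 77 to 98 without 1 library and 178 with no replicate block. Junctions numbered 508 by limma, 133 to 196 without 1 library (133 without the MEP of mouse 2) and 229 with no replicate block. Uncalled genes near 0 changed sign. Hbb-bt was at -0.08 by voom, -0.11 with no replicate block, -0.09 in the 6 libraries alone with no replicate block, and -0.21 to 1.13 without 1 library (-0.06 and -0.21 without the GMP or MEP of mouse 2). Hbb-bs was at -0.03, -0.07 and -0.05 under the same settings, and at -0.17 to 1.10 without 1 library (-0.05 and -0.17). Slc4a1 was at 0.09 by the median intron, 0.03 with no filter, 0.02 in the 6 libraries alone, and -0.42 to 0.27 without 1 library (0.18, 0.21 and 0.27 without the GMP of mouse 2 or 3 or the MEP of mouse 3). Of the 150 called introns, 10 turned sign net of longer introns and 19 of 135 from the smaller end. Among the named ones, retention turned in Rac2 intron 4 (-1.41) and Ldb1 intron 1 (-1.57) from the smaller end, and in Igsf6 introns 3 (1.52) and 2 (1.28) net of longer introns. The cause was not tested. Low counts limit the folds of genes near 0 in a group and the shares at ends with few reads.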
